A study of Mus musculus with 8 samples.

Results

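Collagens are the structural proteins of the extracellular matrix, built from alpha chains that wind into a triple helix. Fibrillar collagens (types I, II, III, V, XI, XXIV and XXVII) form the cords of dermis, bone and cartilage, and in skin they are made mainly by fibroblasts. Type IV chains form the mesh of the basement membrane under the epidermis and around the hair follicle, where type VII anchors it to the dermis. Hair follicle stem cells of the bulge, the permanent part of the follicle that holds its slow-cycling stem cells, sit on this membrane and contribute to it.

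The collagen genes were taken as the probe sets whose only gene symbol in the platform annotation has the form of a collagen alpha chain, leaving out Col17a1. This gave 67 of 45141 probe sets and 41 of the 17097 genes tested, each gene read by its brightest probe set on average. By class there were 11 fibrillar genes, 9 of the basement membrane and its zone, and 21 others.

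RNA of bulge cells was hybridised to 8 Affymetrix mouse arrays. The labels put 4 arrays in a G9a cKO group, from animals in which the histone methyltransferase G9a is conditionally deleted, and 4 in a G9a WT group. Animals of both groups had the carcinogen DMBA (0.25 mg/ml) and the tumour promoter TPA (0.02 mg/ml) on the back skin, 200 µl weekly for 6 weeks from 8 weeks of age, and are given as 15 weeks old. No array came from untreated skin, so all comparisons are within bulge cells of treated animals. The sources used here do not give the promoter that drives Cre, the deleted part of the gene, the way the bulge cells were isolated or the sex of the animals.

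Signals are log2 values, so a difference of 1 is a doubling. G9a is encoded by Ehmt2, and 1 of its 2 probe sets read 6.44, 5.54, 5.80 and 5.64 in the G9a cKO arrays, against 9.29, 8.89, 8.93 and 9.15 in the G9a WT arrays. The change of -3.21 (SE 0.18) had an adjusted p of 6.23e-05 in limma over all probe sets. The other Ehmt2 probe set read 8.41 ± 0.02 in G9a cKO and 8.41 ± 0.01 in G9a WT (SD, n = 4 each), and where it lies relative to the deleted part was not determined. All 10 bulge markers and all 6 basal keratinocyte markers, with 2 genes on both lists, lay in the highest 20% of probe sets by mean signal, above 8.16. Array medians lay between 5.87 and 5.95. On the first principal component (37.3% of the variance) G9a WT replicate 4 lay at 2.92, between the G9a cKO arrays (-12.2 to -5.95) and the other G9a WT arrays (10.6 to 12.7).

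Across the 41 collagen genes, Col1a1 was lower and Col5a2 higher in G9a cKO, and no other passed an adjusted p of 0.05 in limma. Over all genes tested 2.76% passed, 1.92% higher and 0.836% lower, so the 2 collagen calls are close to the background share. At an unadjusted p under 0.05, 7 collagen genes were higher and 3 lower, where 8.16% and 5.57% of all genes were. The arrays of the groups did not overlap for Col5a2 and Col4a2, higher in G9a cKO, nor for Col1a1 and Col12a1, lower. Non-overlap occurred in 8.24% of all genes, 5.15% with G9a cKO higher and 3.09% with it lower. The median change was 0.022 over the collagen genes and 0.0027 over all genes, and 63.4% of collagen genes lay above 0, against 51.5% of all genes.

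**Figure D1:**
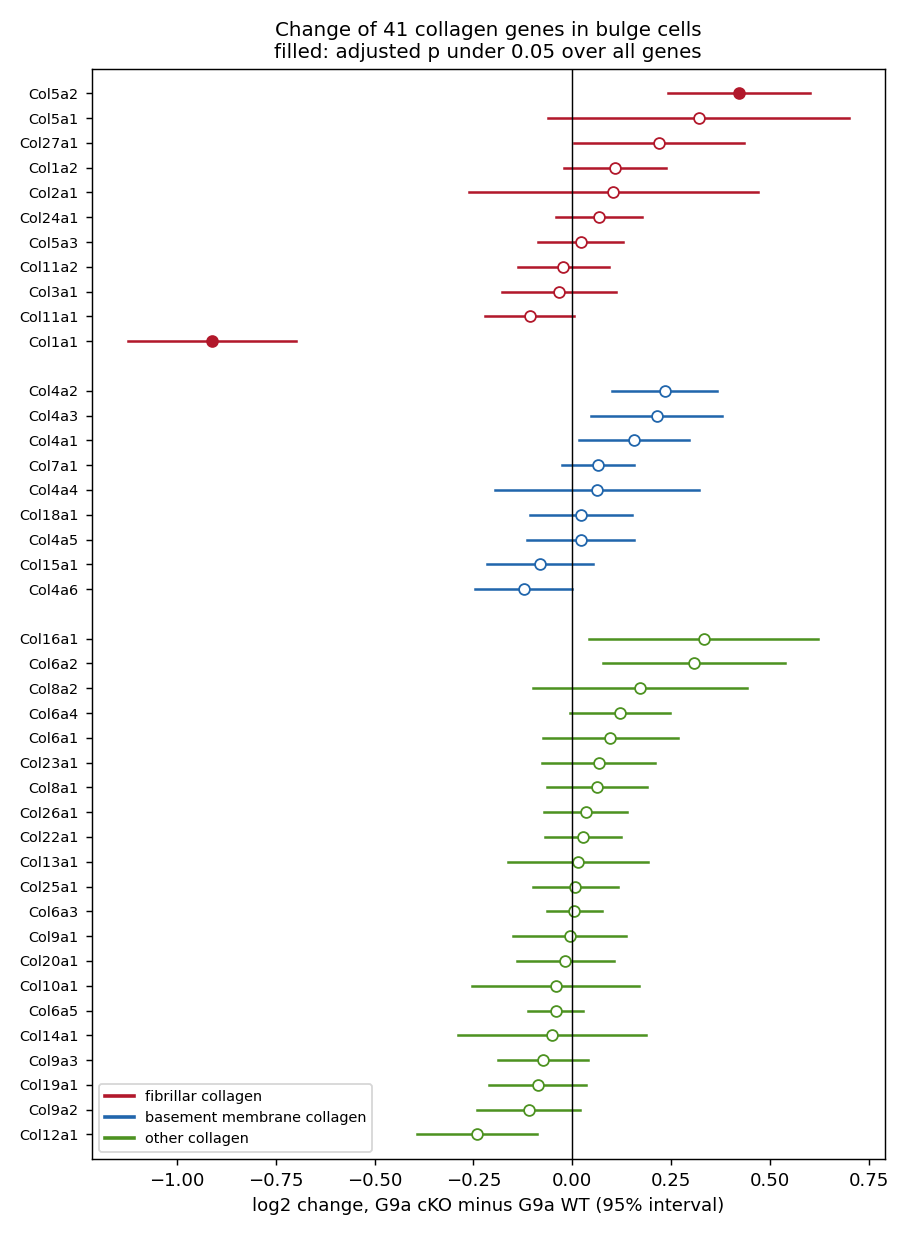
Log2 change (G9a cKO minus G9a WT, x axis) of each collagen gene (y axis) with its 95% interval from limma, coloured by class, filled where the adjusted p over all genes is under 0.05. Col1a1 at -0.91 and Col5a2 at 0.42 are the filled points, and the remaining genes lie between -0.24 and 0.33.

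Both called genes were fibrillar, and they changed in opposite directions. Col1a1, the main chain of type I collagen, read 6.21, 5.93, 6.14 and 6.38 in the G9a cKO arrays, against 7.19, 7.16, 6.96 and 7.01 in the G9a WT arrays. Every G9a cKO array lay below every G9a WT array, with a gap wider than the spread within either group. The change was -0.91 (SE 0.096, 95% interval -1.13 to -0.70), or 1.88-fold lower, with an adjusted p of 0.00100 in limma. The exact two-sided permutation test gave 0.0286, the smallest p that 4 against 4 arrays allow. Col1a1 has 1 probe set here, of middle signal, between the bottom 40% and the top 20% of all probe sets.

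Col5a2, a chain of type V collagen, which regulates the diameter of type I fibrils, read 10.06, 10.28, 10.18 and 10.33 in G9a cKO, against 9.84, 9.98, 9.68 and 9.66 in G9a WT. The groups did not overlap, though 0.082 separates the lowest G9a cKO array from the highest G9a WT array. The change was 0.42 (SE 0.081, 95% interval 0.24 to 0.60), or 1.34-fold higher, with an adjusted p of 0.0214 in limma. A second, dimmer probe set of Col5a2 changed by 0.47 with an adjusted p of 0.0534 over all probe sets. The call rests on single arrays: leaving out G9a cKO replicate 2, G9a cKO replicate 4 or G9a WT replicate 3 gave adjusted p-values of 0.0818, 0.0689 and 0.0760, with changes of 0.38 to 0.40. Without G9a WT replicate 4, Col5a2 changed by 0.38 (adjusted p 0.0322) and Col1a1 by -0.94 (adjusted p 0.00175).

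The chains that assemble with these products did not pass the test. Col1a2 completes the type I heterotrimer. Its 1 named probe set read 4.89, 4.83, 4.85 and 4.94 in G9a cKO, against 4.69, 4.85, 4.88 and 4.66 in G9a WT (change 0.11, adjusted p 0.475 in limma). That probe set lies in the lowest 40% of signal, under 5.23, where the normalization compresses differences, so a change of this chain could have gone undetected. Col3a1, which co-assembles with type I in dermal fibrils, was as dim, at 4.47, 4.32, 4.27 and 4.23 in G9a cKO, against 4.29, 4.45, 4.45 and 4.25 in G9a WT (change -0.03, adjusted p 0.917 in limma).

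Col5a1 is the partner chain of Col5a2. It read 8.58, 8.48, 7.90 and 8.07 in G9a cKO, against 7.91, 7.60, 7.96 and 8.28 in G9a WT. G9a cKO replicates 1 and 2 were high and the remaining arrays overlapped. The change of 0.32 had a 95% interval of -0.06 to 0.70, which holds 0 as well as the change of Col5a2, and an adjusted p of 0.471 in limma. The other probe sets of Col5a1 gave 0.089 and 0.12, and the mean over its probe sets 0.18. Without G9a cKO replicate 1 or G9a WT replicate 2 the change was 0.21.

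The promoters of these chains are shown because their products assemble with those of the called genes. The letters are the bases before the annotated gene start in RefSeq (GRCm38.p6, plus strand, 5′ to 3′). Capitals mark 3 motifs searched on both strands. The letters of the GC box are GGGCGG, which read CCGCCC on the minus strand. The second motif is the CCAAT box, whose letters are its name. The letters of the TATA box were TATAAA. No match overlapped another kind of motif in these windows. The stretches are chr6:4505368-4505617 for Col1a2, chr1:45311288-45311537 for Col3a1 and chr2:27886175-27886380 for Col5a1, where the stretch ends at the earliest annotated start.
Col1a2: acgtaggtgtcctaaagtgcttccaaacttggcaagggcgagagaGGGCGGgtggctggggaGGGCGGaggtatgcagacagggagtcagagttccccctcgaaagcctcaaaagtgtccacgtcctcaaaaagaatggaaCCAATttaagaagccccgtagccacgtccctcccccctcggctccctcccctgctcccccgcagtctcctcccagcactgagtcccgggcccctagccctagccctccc
Col3a1: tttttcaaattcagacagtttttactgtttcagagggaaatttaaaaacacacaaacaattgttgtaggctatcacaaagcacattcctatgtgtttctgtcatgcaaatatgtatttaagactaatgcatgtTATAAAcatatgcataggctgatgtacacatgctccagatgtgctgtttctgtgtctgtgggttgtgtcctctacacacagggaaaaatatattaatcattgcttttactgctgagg
Col5a1: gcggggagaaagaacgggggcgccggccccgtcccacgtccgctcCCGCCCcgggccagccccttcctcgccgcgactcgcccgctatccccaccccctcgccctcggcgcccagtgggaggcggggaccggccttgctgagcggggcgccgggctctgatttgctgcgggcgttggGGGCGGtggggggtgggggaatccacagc
Col1a2 and Col5a1 hold matches to the GC box and Col1a2 also to the CCAAT box. Col3a1 holds a TATAAA match with no GC box match in this window. That TATAAA match lies near the middle of the stretch, away from the annotated start. Windows were found for 32 of the 41 genes, and not for Col1a1, Col5a2, Col2a1, Col4a3, Col9a3, Col12a1, Col14a1, Col22a1 and Col26a1. In the 250 bases before the start, GGGCGG occurred in 20 of the 32 (62.5%) and in 35.4% of 27025 genes with a window, CCAAT in 12 (37.5%) and in 37.5%, and TATAAA in 4 (12.5%) and in 14.3%. A match describes the letters and is no measured binding site.

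Of the remaining fibrillar genes, Col27a1, a fibrillar collagen known from cartilage, read 6.50, 6.18, 6.14 and 6.14 in G9a cKO, against 5.95, 5.90, 6.02 and 6.22 in G9a WT. G9a cKO replicate 1 was the high array, and the change of 0.22 had an adjusted p of 0.353 in limma. It was 0.13 without that array, and the second probe set gave 0.049. Col11a1, a chain of the minor cartilage fibril collagen, read 3.81, 3.68, 3.75 and 3.69 in G9a cKO, against 3.85, 3.83, 3.96 and 3.72 in G9a WT, at the bottom of the scale (change -0.11, adjusted p 0.386). Its second probe set gave 0.019, and the change was -0.07 without G9a WT replicate 3. Col2a1, the main cartilage collagen, changed by 0.10 with an interval of -0.26 to 0.47. Col24a1, Col5a3 and Col11a2 were dim and changed by 0.07, 0.02 and -0.02. The 11 fibrillar genes had a median change of 0.067, with 7 of them above 0, and of 0.013 without G9a cKO replicate 2 and 0.024 without G9a WT replicate 1.

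**Figure D2:**
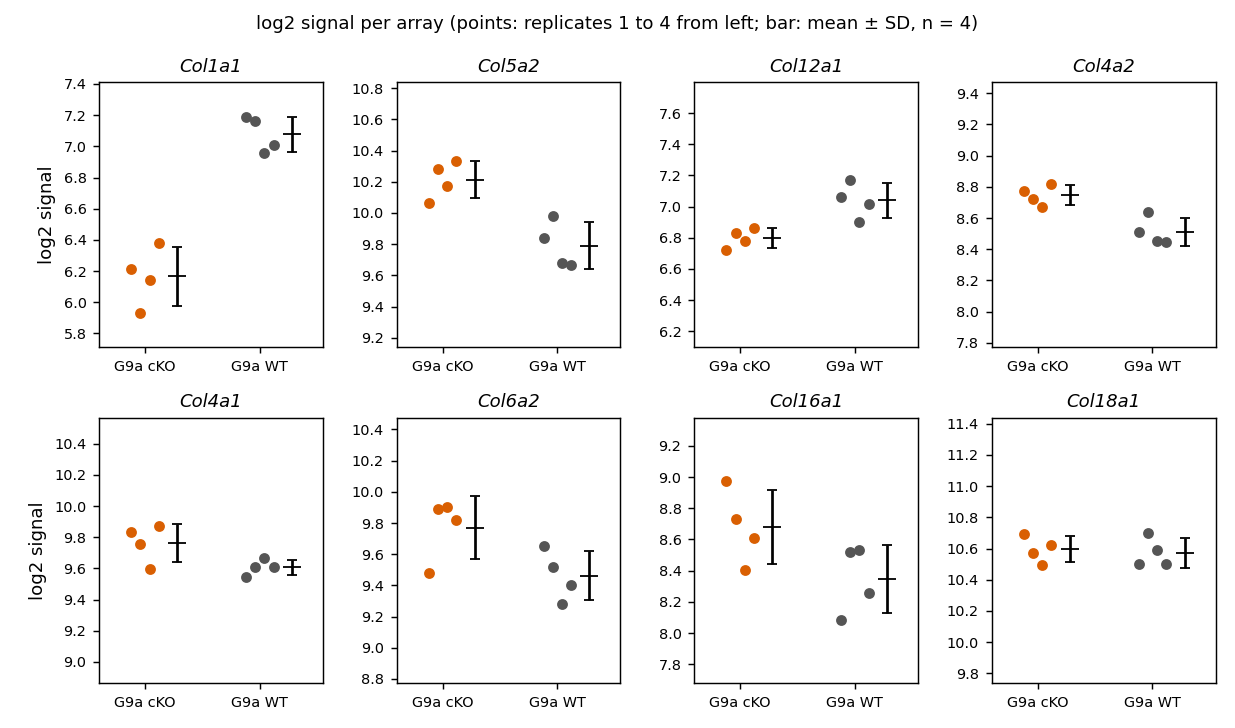
Log2 signal (y axis) of 8 collagen genes in each array, G9a cKO left of G9a WT, replicates 1 to 4 from left within a group, with bars for the mean ± SD (n = 4). The groups stand apart for Col1a1, Col5a2, Col12a1 and Col4a2 and overlap for Col4a1, Col6a2, Col16a1 and Col18a1; the axes span equal ranges but do not start at 0.

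None of the 9 basement membrane genes passed the adjusted test in limma, and at an unadjusted p under 0.05 3 were higher and 1 lower, where 8.16% and 5.57% of all genes were. Their median change was 0.062, with 7 above 0, and leaving out G9a WT replicate 1, G9a cKO replicate 2 or G9a WT replicate 4 made it 0.016, 0.029 and 0.038. The 6 type IV genes had a median of 0.11, with 5 above 0. Col4a1 and Col4a2 encode the chains of the ubiquitous type IV network. Col4a2 read 8.77, 8.72, 8.67 and 8.82 in G9a cKO, against 8.51, 8.64, 8.45 and 8.45 in G9a WT. All G9a cKO arrays were above all G9a WT arrays, by 0.032 at the nearest. The change was 0.23 (SE 0.060, 95% interval 0.10 to 0.37), with an adjusted p of 0.0763 in limma, which became 0.0418 without G9a WT replicate 2.

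Col4a1 read 9.83, 9.75, 9.59 and 9.87 in G9a cKO, against 9.55, 9.61, 9.66 and 9.61 in G9a WT. Here 3 of the G9a cKO arrays lay above all G9a WT arrays, and replicate 3 lay among them. The change was 0.16 (95% interval 0.02 to 0.30, adjusted p 0.286 in limma), and a second probe set of Col4a1 gave 0.21 (adjusted p 0.370 over all probe sets). Neither chain passed, so the data give intervals for the pair and no call.

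Col4a1 and Col4a2 lie head to head, which is why their start region is shown. In RefSeq (GRCm38.p6) Col4a1 starts at position 11312826 of chromosome 8 on the minus strand and Col4a2 at 11312805 on the plus strand. The 30 bases of chr8:11312801-11312830 are given on the plus strand, with capitals for the 22 bases from one start to the other. By these positions both annotated genes cover the 22 bases, so their 5′ ends overlap.
Col4a1 and Col4a2 starts: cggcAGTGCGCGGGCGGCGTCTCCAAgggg

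The kidney and epithelial type IV chains were dimmer. Col4a3 read 5.55, 5.49, 5.35 and 5.36 in G9a cKO, against 5.07, 5.16, 5.36 and 5.31 in G9a WT (change 0.21, adjusted p 0.216 in limma). Its second probe set gave 0.025, and the mean of both 0.12. Its G9a cKO replicates 1 and 2 were above every G9a WT array, and replicates 3 and 4 were level with G9a WT replicate 3. Col4a6, a chain of the skin and smooth muscle basement membrane, was the type IV gene with the lower mean in G9a cKO. It read 7.61, 7.63, 7.57 and 7.73 in G9a cKO, against 7.74, 7.71, 7.80 and 7.78 in G9a WT (change -0.12, adjusted p 0.364). Col4a4 changed by 0.06 (95% interval -0.20 to 0.32) and Col4a5 by 0.02 (-0.11 to 0.16).

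Col7a1 forms the anchoring fibrils that tie the epidermal basement membrane to the dermis. It read 10.69, 10.63, 10.59 and 10.67 in G9a cKO, against 10.61, 10.61, 10.60 and 10.50 in G9a WT. The arrays overlapped, and the change of 0.07 had a 95% interval of -0.03 to 0.16 (adjusted p 0.559 in limma). Col18a1, a basement membrane proteoglycan whose C-terminal fragment is endostatin, read 10.69, 10.57, 10.49 and 10.62 in G9a cKO, against 10.50, 10.70, 10.59 and 10.50 in G9a WT. Its change of 0.02 had an interval of -0.11 to 0.15 (adjusted p 0.942). For both genes the interval ends below the 0.42 of Col5a2. Col15a1, the relative of Col18a1 found around vessels and muscle, was in the lowest signal band and changed by -0.08.

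None of the 21 other collagen genes passed in limma, and at an unadjusted p under 0.05 2 were higher and 1 lower, where 8.16% and 5.57% of all genes were. Their median change of 0.0074 had no stable sign: it was 0.027 without G9a cKO replicate 2, -0.00088 without G9a WT replicate 1 and -0.0046 with array weights. The 9 FACIT genes, whose products sit on the surface of fibrils or between them, had a median of -0.05, with 2 above 0. Col12a1, a FACIT collagen that decorates type I fibrils, read 6.72, 6.83, 6.78 and 6.86 in G9a cKO, against 7.06, 7.17, 6.90 and 7.02 in G9a WT. The groups were apart by 0.040 at the nearest arrays, and the change of -0.24 (95% interval -0.39 to -0.09) had an adjusted p of 0.111 in limma. Col16a1, a FACIT relative that is found near the dermal-epidermal junction, read 8.98, 8.73, 8.40 and 8.61 in G9a cKO, against 8.08, 8.52, 8.53 and 8.26 in G9a WT. Its change was 0.33 (95% interval 0.04 to 0.62, adjusted p 0.279), with G9a cKO replicate 1 the highest array and G9a WT replicate 1 the lowest. Col9a1, Col9a2, Col9a3, Col14a1, Col19a1, Col20a1 and Col22a1 changed by -0.11 to 0.03.

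The type VI chains form beaded filaments. Col6a1 and Col6a2 were bright and Col6a3, Col6a4 and Col6a5 dim. Col6a2 read 9.48, 9.89, 9.90 and 9.82 in G9a cKO, against 9.65, 9.52, 9.28 and 9.40 in G9a WT. G9a cKO replicate 1 lay below 2 of the G9a WT arrays, and the other G9a cKO arrays were above all of them. The change was 0.31 (95% interval 0.08 to 0.54, adjusted p 0.194 in limma), and it was 0.41 with an adjusted p of 0.0316 without G9a cKO replicate 1. That probe set is of a kind that can bind other transcripts too, and the second Col6a2 probe set gave the same change of 0.31.

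Col6a1, the partner of Col6a2, read 11.22, 11.48, 11.53 and 11.53 in G9a cKO, against 11.44, 11.44, 11.23 and 11.25 in G9a WT (change 0.10, adjusted p 0.684 in limma). Col8a2, a chain of the hexagonal network of type VIII, read 10.11, 10.43, 10.53 and 10.29 in G9a cKO, against 10.49, 10.21, 9.94 and 10.02 in G9a WT (change 0.17, adjusted p 0.624). In 6 of the 41 collagen genes G9a cKO replicate 1 was the lowest array of its group and G9a WT replicates 3 and 4 were the lowest of theirs. These were Col6a1, Col6a2, Col6a3, Col8a2 and Col12a1 and the called gene Col5a2. The pattern was counted in collagen genes alone. Its share over all genes was not counted, so it cannot be called particular to collagen genes. Col6a4 read 4.94, 4.88, 4.94 and 4.80 in G9a cKO, against 4.73, 4.67, 4.79 and 4.89 in G9a WT (change 0.12, adjusted p 0.395), and its second probe set gave -0.06. Col6a3 and Col6a5 changed by 0.01 and -0.04, Col8a1 and Col10a1 by 0.06 and -0.04, and the transmembrane collagens Col13a1, Col23a1 and Col25a1 by 0.01 to 0.07. Col26a1 changed by 0.03.

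**Figure D3:**
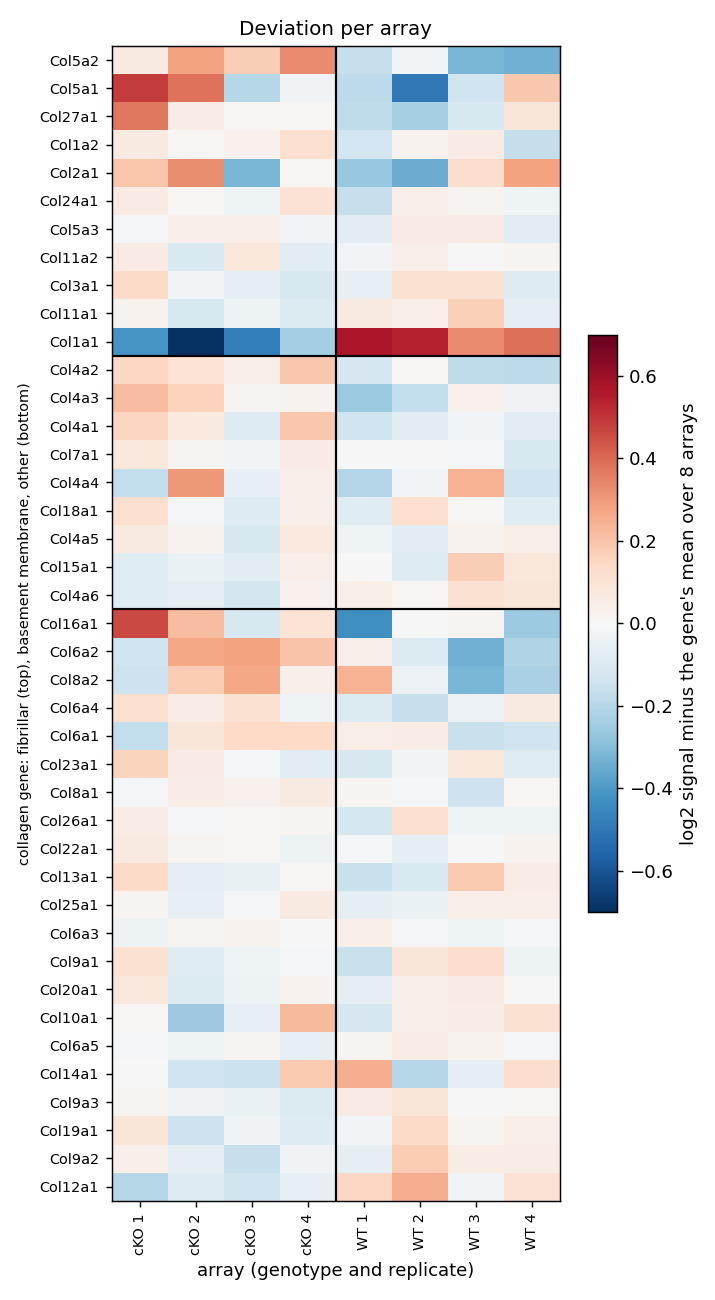
Log2 signal of each collagen gene (rows, by class) in each array (columns) minus the gene's mean over 8 arrays, red above and blue below it. The Col1a1 row splits by genotype, Col5a2 does so more weakly, and Col6a1, Col6a2 and Col8a2 are low in cKO 1, WT 3 and WT 4.

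By signal, 16 collagen genes lay in the lowest 40% of probe sets, 16 in the middle and 9 in the highest 20%. These bands rank probe sets by brightness and do not compare transcript levels between genes. The 9 bright genes were Col5a2, Col4a1, Col4a2, Col7a1, Col18a1, Col6a1, Col6a2, Col8a2 and Col16a1. All 9 had a change above 0 with a median of 0.17, while 59.5% of the 4681 genes in that band lay above 0, with a median of 0.018. Col18a1 crossed 0 when G9a cKO replicate 1, G9a WT replicate 1 or G9a WT replicate 4 was left out or with array weights, which left 8 of 9. These genes share arrays and 2 neighbour pairs, so the count has no test. In the middle band 9 of 16 lay above 0, against 53.3% of all genes there, and in the lowest band 8 of 16, against 42.9%. No collagen gene passed in the lowest band, where 80 of all 5817 genes passed as higher and 23 as lower. At these signals a change in either direction could go undetected.

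**Figure D4:**
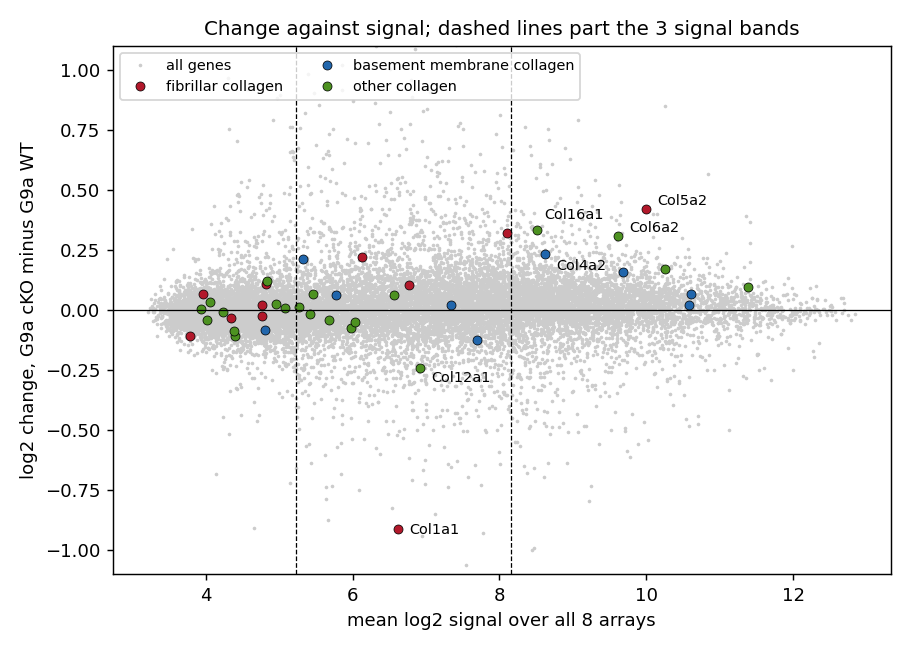
Log2 change (G9a cKO minus G9a WT, y axis) against mean log2 signal over 8 arrays (x axis) for collagen genes by class over all genes in grey, with dashed lines at the bounds of the signal bands. The 9 collagen genes right of the second line lie above 0, and Col1a1 lies lowest of the collagen genes at -0.91; 31 genes beyond ±1.1 are not drawn.

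The 26 further probe sets of 21 collagen genes passed in no case in the fit over all probe sets, where 1.78% of 45037 passed. Of these, 15 lay in the lowest signal band. In 7 cases the sign was opposite to that of the gene's brightest probe set, with changes no larger than 0.085.

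Genes that act on collagen were read in the same fit, in lists chosen with earlier results of these data known. Among the receptors, Ddr2, a receptor tyrosine kinase activated by fibrillar collagen, rose in G9a cKO and was 1 of 9 receptors to pass, where 1.92% of all genes passed as higher. It read 7.31, 7.70, 7.19 and 7.03 in G9a cKO, against 5.80, 5.84, 5.91 and 5.98 in G9a WT. The lowest G9a cKO array was 1.05 above the highest G9a WT array. The change of 1.42 (SE 0.12) was 2.68-fold, with an adjusted p of 0.000439 in limma. A second, dim probe set gave 0.59 (adjusted p 0.00281 over all probe sets). Of the 9 receptors, 2 were higher and 1 lower at an unadjusted p under 0.05 in limma (8.16% and 5.57% of all genes).

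Of 11 genes of procollagen processing and cross-linking, 1 rose and 2 fell, where 1.92% and 0.836% of all genes did. At an unadjusted p under 0.05 in limma, 2 were higher and 2 lower (8.16% and 5.57% of all genes). Pcolce2, an enhancer of the protease that removes the C-propeptide, read 9.29, 9.67, 9.44 and 9.49 in G9a cKO, against 8.77, 8.77, 8.53 and 8.66 in G9a WT. The groups stood well apart, at 1.73-fold (change 0.79, adjusted p 0.00107 in limma). Adamts3, a protease that removes the N-propeptide of fibrillar procollagens, read 5.59, 5.56, 5.36 and 5.49 in G9a cKO, against 6.05, 6.10, 6.17 and 5.96 in G9a WT. It fell 1.49-fold (change -0.57, adjusted p 0.00193). Its dim second probe set changed by -0.13 (adjusted p 0.211 over all probe sets).

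Loxl4, a lysyl oxidase relative that cross-links collagen and elastin, read 6.67, 6.65, 6.65 and 6.62 in G9a cKO, against 7.06, 7.21, 7.29 and 6.82 in G9a WT. It fell 1.36-fold (change -0.45, adjusted p 0.0307 in limma), and the second probe set gave -0.48 (adjusted p 0.00360 over all probe sets). The spread came from the G9a WT arrays, replicate 4 being the lowest of them. The call on the first probe set held without G9a WT replicate 4 and was lost without any other array, with adjusted p-values up to 0.0967.

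**Figure D5:**
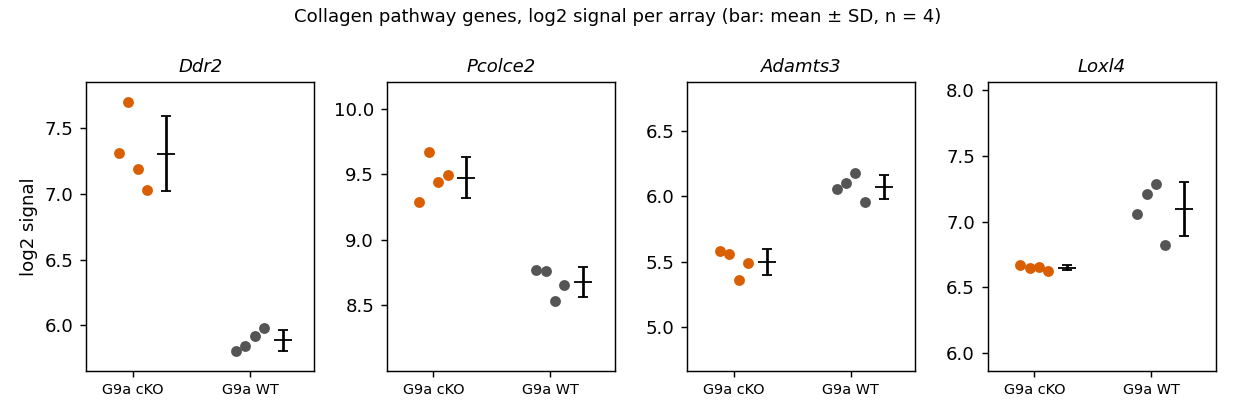
Log2 signal (y axis) of Ddr2, Pcolce2, Adamts3 and Loxl4 in each array, G9a cKO left of G9a WT, with bars for the mean ± SD (n = 4). G9a cKO arrays lie above all G9a WT arrays for Ddr2 and Pcolce2 and below them for Adamts3 and Loxl4; the axes do not start at 0.

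None of 16 genes of collagen modification and folding passed in limma, with 5 higher and 0 lower at an unadjusted p under 0.05, a level that 8.16% and 5.57% of all genes reached. Plod1, a lysyl hydroxylase, had the lowest p of that list, at 8.17 ± 0.12 in G9a cKO and 7.90 ± 0.04 in G9a WT (SD, n = 4 each, adjusted p 0.0713 in limma). None of 13 collagen-binding matrix proteins passed, with 2 higher and 1 lower at an unadjusted p under 0.05 (8.16% and 5.57% of all genes). Thbs2, a thrombospondin that affects fibril assembly in mouse skin, came nearest at 6.69 ± 0.21 in G9a cKO and 6.18 ± 0.19 in G9a WT (SD, n = 4 each, adjusted p 0.0503 in limma). None of 11 collagen-degrading proteases and inhibitors passed, with 0 higher and 2 lower at an unadjusted p under 0.05 (8.16% and 5.57% of all genes). Timp3, an inhibitor of matrix metalloproteinases that is held in the matrix, was nearest at 8.89 ± 0.30 in G9a cKO and 9.62 ± 0.34 in G9a WT (SD, n = 4 each, adjusted p 0.0620 in limma). List medians lay between -0.011 and 0.035, against 0.0027 over all genes.

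Markers of other cell types bear on Col1a1, which fibroblasts make in quantity. In bulk RNA, fewer cells of a type and less RNA per cell cannot be told apart. Of 14 fibroblast markers, 9 were in the lowest signal band, among them Pdgfra, Lum and Dpt, 4 in the middle and 1, Fbln1, in the highest. The mean over the list was 5.08 to 5.12 in the G9a cKO arrays and 5.07 to 5.16 in the G9a WT arrays, which overlapped. Its median change was -0.0012, and 1 marker rose and 1 fell, where 1.92% and 0.836% of all genes did. Thy1, a surface glycoprotein of fibroblasts, averaged 7.47 ± 0.25 in G9a cKO and 6.90 ± 0.10 in G9a WT (SD, n = 4 each, 1.48-fold, adjusted p 0.0251 in limma), and its call held in 3 of 8 fits without 1 array. It was lost without G9a cKO replicates 2 or 3 or G9a WT replicates 1, 2 or 3, with adjusted p-values of 0.0599 to 0.0768. Cdh11, a mesenchymal cadherin, averaged 3.80 ± 0.02 in G9a cKO and 4.49 ± 0.22 in G9a WT (SD, n = 4 each), near the bottom of the scale. It was 1.61-fold lower (adjusted p 0.00241 in limma), and its call held in 8 of 8 fits without 1 array. A second dim probe set of Cdh11 changed by -0.27 (adjusted p 0.00611 in limma over all probe sets). The part of fibroblast RNA in the Col1a1 result was not tested.

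Of 5 pericyte and smooth muscle markers 1 fell (0.836% of all genes did), Notch3, a receptor of mural cells that keratinocytes also make, at 7.97 ± 0.14 in G9a cKO and 8.52 ± 0.22 in G9a WT (SD, n = 4 each, 1.46-fold lower, adjusted p 0.0246 in limma). Its call held in 4 of 8 fits without 1 array. The call was lost without G9a cKO replicates 2 or 3 or G9a WT replicates 1 or 3, with adjusted p-values of 0.0648 to 0.0877. A second Notch3 probe set changed by -0.62 (adjusted p 0.0450 in limma over all probe sets). Of the 5 pericyte and smooth muscle markers, 1 was higher and 1, Notch3, lower at an unadjusted p under 0.05 in limma. No marker passed in limma among 9 of dermal papilla and sheath (2 lower at an unadjusted p under 0.05) or 8 endothelial (1 higher). None passed among 8 of macrophages and leukocytes (1 lower), 6 of melanocytes (1 lower), 2 of Schwann cells and 3 of adipocytes. At that unadjusted level 8.16% of all genes were higher and 5.57% lower. The lowest adjusted p-values of these lists were 0.224 for Crabp1, 0.347 for Tek, 0.165 for Cd68, 0.224 for Pmel, 0.843 for S100b and 0.599 for Adipoq. Of the endothelial and the leukocyte markers, 7 of 8 each lay in the lowest signal band. Of the bulge markers none passed, and Nfatc1, a factor of stem cell quiescence, came nearest at 10.16 ± 0.14 in G9a cKO and 10.50 ± 0.14 in G9a WT (SD, n = 4 each, adjusted p 0.0567 in limma). Of the 10 bulge markers, 1 was higher and 1 lower at an unadjusted p under 0.05 in limma (8.16% and 5.57% of all genes). Among basal keratinocyte markers Trp63 had the lowest adjusted p, 0.503. Of 4 markers of sex measured, Xist lay in the lowest signal band in both groups. It averaged 5.20 ± 0.06 in G9a cKO and 5.13 ± 0.12 in G9a WT (SD, n = 4 each). The Y-linked markers Eif2s3y, Kdm5d and Uty averaged 9.10, 8.35 and 6.61 in G9a cKO, and 9.19, 8.13 and 6.60 in G9a WT. No marker of sex passed, Kdm5d coming nearest with an adjusted p of 0.153 in limma.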

How the data were processed

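The authors deposited log2 signals, 1 per probe set and array. The submitters' processing notes name RMA, and the sources used here give neither its version nor its settings. RMA subtracts background, equalises the arrays and combines the probes of each set, and it compresses differences near the bottom of the scale. Per the labels' protocols, 25 ng of total RNA were amplified over 17 cycles and 8 µg of cDNA were labelled. These deposited log2 signals spanned 3.09 to 13.1, and no further normalization was applied to them. Precision is limited by the number of arrays.

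Probe sets were named by the platform annotation: 28898 had 1 symbol, 551 several and 15692 none, and only those with 1 symbol were named; 104 control probe sets were left out. The probe set with the highest mean stood for a gene. The contrast was 4 G9a cKO minus 4 G9a WT arrays in limma (version 3.58.1, under R 4.3.3), fitted by lmFit with no covariates and a trended eBayes, two-sided. P-values were adjusted by Benjamini-Hochberg over 17097 genes, or over 45037 probe sets where named, with a threshold of 0.05. Values in each array are given for collagen genes past the threshold or without overlap, for the 3 next lowest p-values of each class and for Col1a1, Col1a2, Col3a1, Col4a1, Col4a2, Col7a1 and Col18a1. Those of Col6a1 and Col8a2 were added after their values were seen. Of the lists, members that passed or the member with the lowest p are named, and Fbln1, Pdgfra, Lum, Dpt, Xist, Eif2s3y and Uty were added. The titles name an animal per array, and p-values rest on the spread between these animals. Members, gene lists and tests were chosen with earlier results of these data known. The lists held 144 distinct genes, of which 128 were measured. Alternatives were another normalization, filter, probe set rule, variance model, array weights, a replicate block, other thresholds and each array left out. As a check of its code, the fit was run on simulated data with known changes. Promoter sequences are from RefSeq (GRCm38.p6). Plots were made in Python 3.11.15 (matplotlib 3.10.9).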

Additional observations from a re-analysis of the deposited data

Results flagged for a closer look

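In 46 groups of 4 arrays, those of the collagen and pathway genes given by array, 2 had an array far from the others, where chance gives about 1 in 20. Col27a1 in G9a cKO had replicate 1 at 6.50 and the others at 6.14 to 6.18, so that the gap was 0.880 of the group's range. Col7a1 in G9a WT had replicate 4 at 10.50 and the others at 10.60 to 10.61, a gap of 0.888 of the range. Neither gene passed the test between genotypes.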

How the results depend on the processing

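Col1a1 passed in all 16 alternative fits, with changes of -0.98 to -0.83 and adjusted p-values of 0.000875 to 0.0092 in limma, and it was the 1 lower collagen call in each. Col5a2 passed in 12 of 16 (changes 0.38 to 0.49). The number of collagen genes called higher was 0 with the replicate block and at an adjusted p under 0.01, 2 at an adjusted p under 0.1 (Col4a2 added), and 0 to 2 with 1 array left out. It was 0 without G9a cKO replicate 2, G9a cKO replicate 4 or G9a WT replicate 3, and 2 without G9a cKO replicate 1 (Col6a2 added) or G9a WT replicate 2 (Col4a2 added). No pairing by replicate number was seen: deviations of same-numbered arrays correlated at -0.332, -0.274, -0.529 and 0.0281, and 0 of 4 exceeded 0.1. With 4 arrays per group, these correlations cannot exclude a pairing. With the block, Col5a2 had an adjusted p of 0.0530, and 268 of all genes passed.

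The median change of the fibrillar genes was 0.22 with dim probe sets left out, which leaves 5 genes, and 0.013 to 0.088 with 1 array left out. With 1 array left out, the median ran from 0.016 to 0.083 for basement membrane genes, from -0.00088 to 0.027 for other collagens and from 0.016 to 0.037 for all collagens. Col18a1 reversed to -0.013 with array weights, -0.011 without G9a cKO replicate 1, -0.0021 without G9a WT replicate 1 and -0.0026 without G9a WT replicate 4, in a range up to 0.064 without G9a WT replicate 2; the cause was not tested. Of all genes, 472 passed as reported, 732 with array weights, 744 at 0.1, 203 at 0.01 and 258 to 796 with 1 array left out, the highest without G9a WT replicate 4; 802 of 45037 probe sets passed. The 16 dim collagen genes limit the family: at their signal small changes could go undetected.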

Other observations

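By the order of genes in RefSeq (GRCm38.p6), 7 pairs of collagen genes lie next to each other. Col5a2, which rose by 0.42, neighbours Col3a1, which changed by -0.03 (adjusted p 0.917 in limma) at a dim signal. Col4a1 and Col4a2 changed by 0.16 and 0.23, and Col6a1 and Col6a2 by 0.10 and 0.31. Col4a3 and Col4a4 changed by 0.21 and 0.06. The members of Col4a5 and Col4a6 had opposite signs, 0.02 and -0.12, as did those of Col6a4 and Col6a5, 0.12 and -0.04. Col9a1 and Col19a1 changed by -0.01 and -0.09. Of the genes in these pairs only Col5a2 passed, and the difference within a pair was not tested.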
